A study of Mus musculus with 6 samples.

Results

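The ERK feedback genes described here are 10 genes of 4 families, chosen by name as known targets of the pathway: the Sprouty genes Spry1, Spry2 and Spry4, the Sprouty-related genes Spred1 and Spred2, the phosphatase genes Dusp4, Dusp5 and Dusp6, and the ETS factor genes Etv4 and Etv5. All 10 had a value, out of 25307 genes in the series, and all 10 reached the mean of at least 1 FPKM that was required for testing, out of 10271 genes that did so. FPKM counts fragments per kilobase and per library size, so levels can be compared between genes of different length. Levels were measured by RNA sequencing of basal cells of the mouse prostate in 3 libraries from proximal ducts, which lie nearest the urethra, and 3 libraries from distal ducts, which lie toward the gland tips. The donors of both groups were C57BL/6 mice of 8 to 12 weeks, with no genetic change or treatment in the labels. Cells of both groups were dissociated, stained with antibodies and sorted, but the antibodies and gates that define a basal cell are not stated. The culture described in the labels is of stromal cells, and the labels do not say whether basal cells were cultured. Nor is it stated if libraries came from separate or pooled animals, so p-values reflect only how far these libraries differ, which could be technical.

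When a ligand of the FGF or EGF family binds its receptor, RAS, RAF and MEK kinases activate ERK, and ERK in turn switches on genes that restrain the same cascade. Sprouty and Spred proteins act between the receptor and RAF, and the Dusp phosphatases of this set remove the activating phosphates from ERK itself. Etv4 and Etv5 are transcription factors that carry out part of the response, so the RNA of all 4 families is widely used as a readout of pathway activity. In the developing prostate, FGF signals from the mesenchyme to the epithelium drive the budding and branching of ducts.

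The libraries held 20900000 to 26700000 fragments, as implied by the deposited intervals, and 9927 to 10317 genes reached 1 FPKM in each. On principal components over the tested genes, the leading component held 47.2% of the variance and separated proximal from distal libraries, and the next, with 25.4%, placed the library numbered 1 of each region away from the rest, so values without 1 or both of these libraries are given for Spry1, Spry2, Dusp4, Dusp6 and Etv5. The basal keratin Krt15 lay between 3326 and 3836 FPKM in proximal and between 2037 and 2443 FPKM in distal libraries. Krt14, another basal keratin, lay between 2121 and 2276 FPKM in proximal and between 2283 and 3397 FPKM in distal libraries. Krt14 was 1 of 3 basal markers, of 11 tested, with a lower proximal mean. The luminal keratin Krt8 was also present, at 519 to 661 FPKM in proximal and 474 to 643 FPKM in distal libraries. Of the tested markers, 8 of 10 proximal luminal progenitor, 5 of 7 fibroblast, 5 of 6 endothelial, 3 of 4 nerve and glia, 5 of 11 basal and 1 of 11 luminal genes were higher in proximal cells, and 2 luminal genes were lower. No smooth muscle marker of 7 and no immune marker of 2 passed the test, and no neuroendocrine marker reached the level for testing. The summed endothelial markers lay at 18.3 to 26.3 FPKM in proximal and 2.38 to 11.9 FPKM in distal libraries, and the nerve and glia markers at 12.6 to 18.1 FPKM in proximal and 3.27 to 5.10 FPKM in distal libraries. The summed fibroblast markers, most of it Dcn, lay at 705 to 774 FPKM in proximal and 774 to 816 FPKM in distal libraries, and those of proximal luminal progenitors at 1851 to 2140 FPKM in proximal and 965 to 1033 FPKM in distal libraries. The summed basal markers lay at 8962 to 9223 FPKM in proximal and 7733 to 9438 FPKM in distal libraries, the luminal markers at 2918 to 3087 FPKM in proximal and 2538 to 3328 FPKM in distal libraries, and the smooth muscle markers at 72.3 to 118 FPKM in proximal and 83.6 to 87.8 FPKM in distal libraries. The summed immune markers lay at 17.5 to 29.1 FPKM in proximal and 22.9 to 27.3 FPKM in distal libraries, with Ptprc at no more than 0.0436 FPKM, and the neuroendocrine sum reached at most 1.00 FPKM. The part of these cells in the results below was not tested.

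Basal cells of both regions held the RNA of every family, and no member passed the test of proximal against distal cells. The abundance of the 10 genes covered a wide span, from Dusp6 at 318 to 723 FPKM to Dusp4 at 1.17 to 3.16 FPKM. Of the 10 members, 8 had a negative log2 fold change, that is, a lower mean in proximal cells, and their median was -0.22, beside a median of -0.01 and 51.5% negative values over all genes tested. The test was limma on log2(FPKM + 1) with Benjamini-Hochberg adjustment over all 10271 genes and a threshold of 0.05, and it passed 0 of 10 members, against 7.03% of all genes (466 genes or 4.54% higher and 256 genes or 2.49% lower in proximal cells). At an unadjusted p under 0.05 there were 2 of 10 members, Spred2 and Etv4, both lower in proximal cells, against 24% of all genes and 11.9% that were lower. The proximal and distal values did not overlap in the same 2 members, against 28.9% of all genes. Counted in either direction, neither share among the members was above that of all genes. In simulated data with 3 libraries per group, 99% of genes changed by 2 on the log2 scale were found and 72% of those changed by 1. Smaller changes were not simulated. The changed genes were drawn from those averaging at least 5 FPKM, which leaves out Dusp4, Etv4 and Etv5. The simulated noise was independent between libraries, without the pattern of the libraries numbered 1. The count of lower genes depended on each library, at 618, 45 and 62 without distal replicate 1, 2 or 3, and 553, 54 and 75 without proximal replicate 1, 2 or 3. The count of higher genes was 207 and 243 without distal replicate 2 or 3, and 204 and 260 without proximal replicate 2 or 3. In bulk samples, a lower level from fewer cells that express a gene and from less RNA per cell cannot be told apart.

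**Figure D1:**
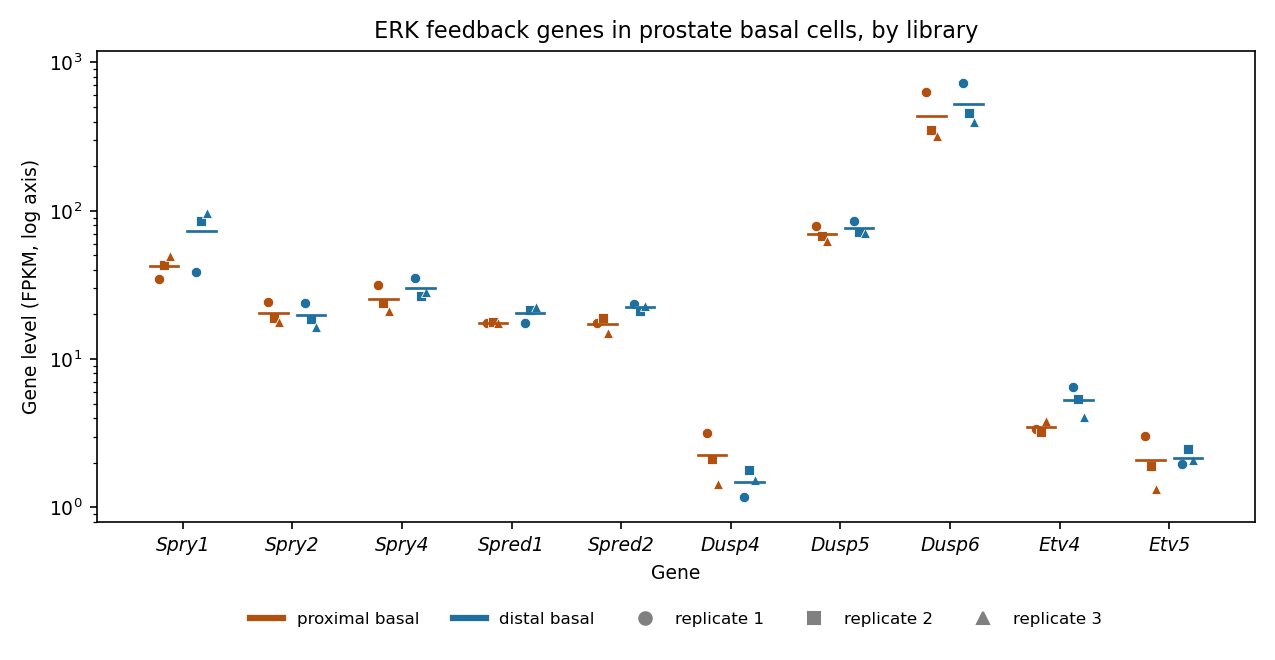
Level of each of the 10 genes in FPKM on a log axis, with 3 proximal libraries (orange) and 3 distal libraries (blue), a symbol for each replicate number and a bar at the group mean. Spred2 and Etv4 are the genes whose groups do not overlap, and Dusp6 lies above all other members in every library.

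The order of levels was the same at the top and near the bottom in both regions. By group mean, Dusp6 was followed by Dusp5, Spry1 and Spry4, and Etv4 came below the Sprouty and Spred genes. The mean of Dusp6 was 6.23 times that of Dusp5 in proximal cells and 6.91 times in distal cells. In proximal cells Dusp5 lay above Spry1 in 3 of 3 libraries, whereas in distal cells it did so in 1 of 3 and their ranges overlapped. The Spry1 value adds several deposited models, and a short one of 942 bases held 10.8 and 13.7 FPKM in proximal libraries 1 and 2. This model stood at 0 in the other libraries, so the order of Spry1 and Spry4 in proximal library 1 depends on the sum. Spry2, Spred1 and Spred2 formed a middle group with means of 17.1 to 20.4 FPKM in the proximal and 19.7 to 22.4 FPKM in the distal group, and neighbours within it overlapped. The Spred2 value adds 2 main deposited models whose spans overlap, with means of 9.16 and 10.1 FPKM over the 6 libraries. An RNA that covers both may count in each, so the rank of Spred2 and its distance to Etv4 depend on this sum. Below a gap of at least 3.73-fold came Etv4, and then Dusp4 and Etv5. Dusp4 lay above Etv5 in 3 of 3 proximal libraries, with ranges that overlapped, whereas Etv5 lay above Dusp4 in 3 of 3 distal libraries.

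The 250 bases upstream of the RefSeq start were available for 7 members, with 8 starts. They are shown for the 3 most abundant members, and a link between sequence and level was not tested. The sequences are those of RefSeq on GRCm38.p6, all on the plus strand, from 5′ to 3′. Spry1 is given for chr3:37639697-37639946 and Dusp6 for chr10:99262981-99263230. Dusp5 is given for chr19:53528895-53529108, which ends 36 bases before its RefSeq start, where the annotated gene begins. Capitals mark adjoining CArG boxes, the element bound by serum response factor.
Spry1: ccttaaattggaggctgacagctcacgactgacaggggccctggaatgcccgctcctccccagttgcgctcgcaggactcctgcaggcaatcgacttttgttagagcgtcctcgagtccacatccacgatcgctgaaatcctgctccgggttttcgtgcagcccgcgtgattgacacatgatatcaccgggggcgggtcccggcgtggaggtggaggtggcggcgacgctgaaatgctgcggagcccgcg
Dusp5: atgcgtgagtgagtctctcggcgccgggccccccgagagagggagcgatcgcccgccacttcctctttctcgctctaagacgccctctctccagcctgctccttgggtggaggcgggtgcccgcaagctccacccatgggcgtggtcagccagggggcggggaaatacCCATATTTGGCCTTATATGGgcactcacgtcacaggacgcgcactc
Dusp6: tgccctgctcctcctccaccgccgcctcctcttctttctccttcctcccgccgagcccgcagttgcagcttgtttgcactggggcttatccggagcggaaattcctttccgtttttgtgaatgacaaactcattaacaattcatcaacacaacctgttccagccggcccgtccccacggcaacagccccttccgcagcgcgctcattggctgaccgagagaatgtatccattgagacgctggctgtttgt
Both CArG boxes of Dusp5 begin 82 and 72 bases upstream of the RefSeq start, and 1 of the 8 member promoters held such a box, against 1.47% of 32851 promoters of the same length. The ETS motif CCGGAAGT, the AP-1 motif TGANTCA and the CRE motif TGACGTCA, searched on both strands, were each in 0 of 8, against 2.88%, 6.75% and 1.55% of all promoters. The CArG box was added to the search after the sequences were seen. A match is a description of these letters only.

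Sprouty proteins are induced by ERK signalling and block the step from the receptor to RAS and RAF. Spry1, on chromosome 3 (37639947 to 37644598, plus strand, mm10), stood at 34.9, 43.1 and 49.6 FPKM in proximal libraries 1, 2 and 3, against 38.7, 85.5 and 96.1 FPKM in distal libraries 1, 2 and 3. Distal libraries 2 and 3 lay above all others, and distal library 1 lay among the proximal values, so the groups overlapped. The means were 42.5 ± 7.35 FPKM in the proximal and 73.4 ± 30.6 FPKM in the distal group (SD, n = 3 each). The log2 fold change was the largest in size of the 10 members, at -0.69 ± 0.32 (SE, 95% interval -1.42 to 0.04, limma, adjusted p = 0.232). Without distal replicate 1 it was -1.09 and passed the test (limma, adjusted p = 0.00958), where 6% of all genes passed as lower, and without both libraries numbered 1 it was -0.96 (limma, adjusted p = 0.00400), where 13.5% of all genes passed as lower. In the other leave-outs of 1 library the adjusted p reached 0.518.

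The immediate early and tissue dissociation genes, which respond within minutes to growth factors and to handling of cells, were set beside Spry1. Of 19 tested, 14 had an unadjusted p under 0.05 in limma, against 24% of all genes. After adjustment 3 were lower in proximal cells, against 2.49% of all genes, and 16 did not pass. Of the 19 genes, 18 had a negative log2 fold change, against 51.5% of all genes, with a median of -0.92 over the list. Their mean deviation from the 6-library average was -0.43, -0.37 and -0.36 in proximal libraries 1, 2 and 3, against -0.11, 0.63 and 0.64 in distal libraries 1, 2 and 3, on the log2(FPKM + 1) scale. Spry1 deviated by -0.61, -0.31 and -0.11 in proximal and by -0.46, 0.66 and 0.83 in distal libraries. Distal libraries 2 and 3 were thus high for both the gene and the list, and the part of handling in the Spry1 values was not tested. The 3 that passed were Ier2, at -0.95 (limma, adjusted p = 0.00847), and the transcription factors Junb, at -0.71 (limma, adjusted p = 0.0284), and Egr2, at -1.19 (limma, adjusted p = 0.0430). Ier2 kept its call in every alternative tried. Junb and Egr2 no longer passed without any 1 of distal replicates 2 and 3 and proximal replicates 2 and 3, nor with no filter on level. Egr2 also did not pass without proximal replicate 1 or without the variance trend. The largest adjusted p in limma was 0.136 for Junb and 0.164 for Egr2. Egr1, another factor of this list, had a log2 fold change of -1.54 (limma, adjusted p = 0.0813) and passed without distal replicate 1.

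**Figure D2:**
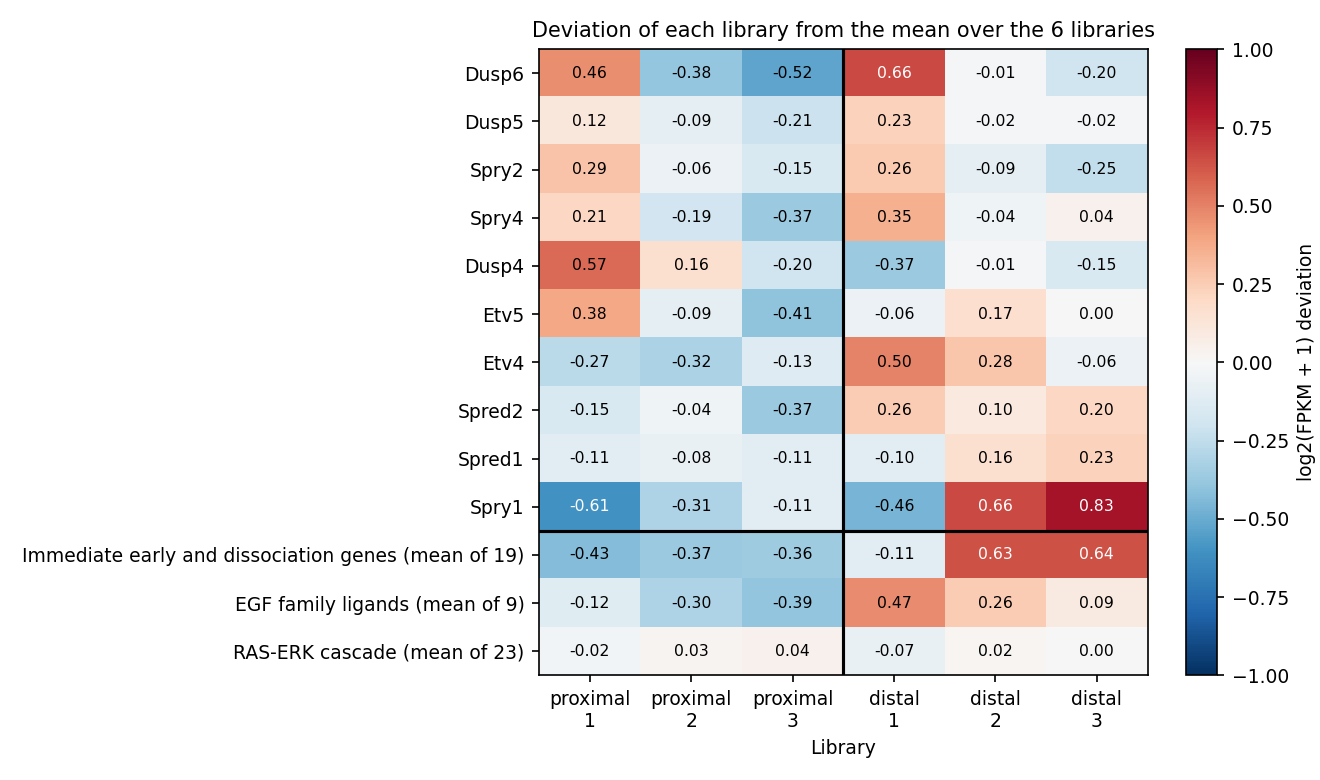
Deviation of each library from the mean over the 6 libraries on the log2(FPKM + 1) scale, for the 10 members (upper rows) and the mean of 3 other gene lists (lower rows), with red above and blue below the mean. Dusp6, Dusp5, Spry2 and Spry4 are highest in the library numbered 1 of each region, and Spry1 is highest in distal libraries 2 and 3.

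The Spry1 level was divided among 4 deposited transcripts, and the division differed between libraries. The main one, of 2204 bases, had 15.5, 19.0 and 34.2 FPKM in proximal libraries 1, 2 and 3, against 22.4, 62.0 and 75.2 FPKM in distal libraries 1, 2 and 3. A transcript of 2493 bases had 5.23, 10.4 and 15.4 FPKM in proximal libraries 1, 2 and 3, against 10.7, 23.6 and 20.9 FPKM in distal libraries 1, 2 and 3. A short model of 942 bases was listed at 10.8 and 13.7 FPKM in proximal libraries 1 and 2, and at 0 in proximal library 3 and in all 3 distal libraries. Because FPKM is per length, fragments assigned to a short model weigh more in the sum. With closely matched transcripts alone, which leave out the short model, the log2 fold change of Spry1 was -1.04 (limma, adjusted p = 0.136), and with transcripts weighted by length it was -0.87 (limma, adjusted p = 0.158). A gene model on the opposite strand, Gm42922, overlaps 24.4% of the exon bases of Spry1, and the strand of the reads is not stated, so their reads cannot be told apart.

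**Figure D3:**
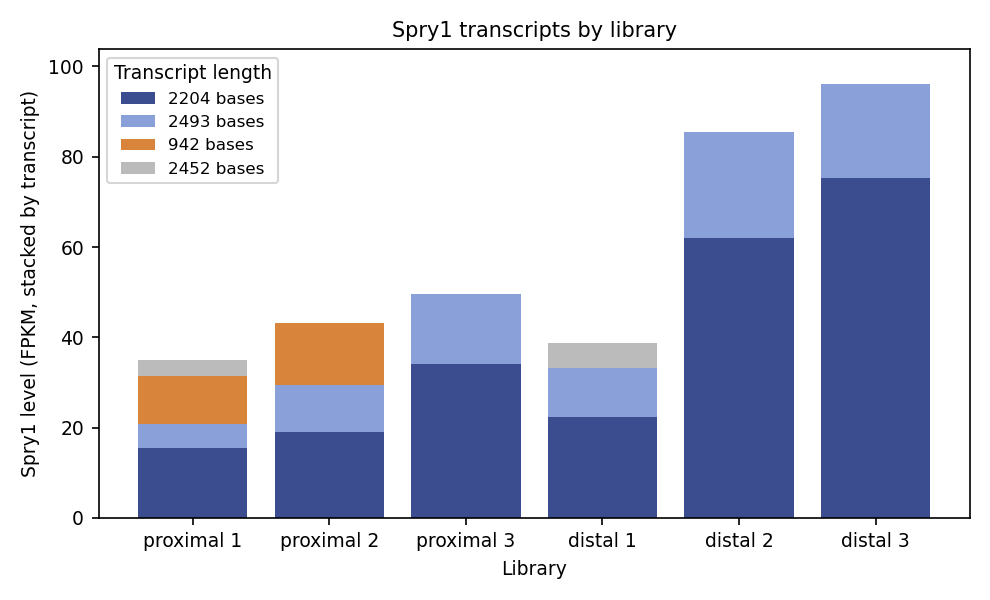
Spry1 level in FPKM stacked by deposited transcript, named by length in bases, for the 3 proximal libraries (left) and the 3 distal libraries (right). The 942-base model carries 10.8 and 13.7 FPKM in proximal libraries 1 and 2 and nothing in the other 4.

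Spry2, on chromosome 14 (105891947 to 105896819, minus strand, mm10), had 24.4, 19.0 and 17.8 FPKM in proximal libraries 1, 2 and 3, against 24.0, 18.6 and 16.5 FPKM in distal libraries 1, 2 and 3. Each region was highest in its library numbered 1, and the groups overlapped almost fully. The means were 20.4 ± 3.53 FPKM in the proximal and 19.7 ± 3.85 FPKM in the distal group (SD, n = 3 each), with a log2 fold change of 0.051 ± 0.17 (SE, 95% interval -0.34 to 0.44, limma, adjusted p = 0.893). Its sign was not stable: it was -0.061 without distal replicate 3, -0.079 without proximal replicate 1 and -0.068 with closely matched transcripts alone.

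Spry4, on chromosome 18 (38586247 to 38601415, minus strand, mm10), had 31.8, 23.9 and 20.98 FPKM in proximal libraries 1, 2 and 3, against 35.3, 26.6 and 28.3 FPKM in distal libraries 1, 2 and 3. Here too the libraries numbered 1 were the highest of their region, and the groups overlapped. Its means were 25.6 ± 5.61 FPKM in the proximal and 30.0 ± 4.59 FPKM in the distal group (SD, n = 3 each), with a log2 fold change of -0.24 ± 0.17 (SE, 95% interval -0.63 to 0.16, limma, adjusted p = 0.445). Summed over the 3 Sprouty genes, the level was 91.1, 86.0 and 88.3 FPKM in proximal libraries 1, 2 and 3, against 97.9, 131 and 141 FPKM in distal libraries 1, 2 and 3. These sums did not overlap and were not tested, and single genes did not overlap in 28.9% of all genes tested. The sums of the Dusp and Etv members did overlap. For Dusp they were 382 to 714 FPKM in proximal and 472 to 809 FPKM in distal libraries. For Etv they were 5.12 to 6.37 FPKM in proximal and 6.12 to 8.39 FPKM in distal libraries. Spry1 held 38.3% to 56.1% of the Sprouty sum in proximal and 39.5% to 68.2% in distal libraries, and in both regions its share was lowest in the library numbered 1. In proximal libraries 1 and 2 this share includes the 942-base model of Spry1.

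Spred proteins bind RAS regulators at the membrane and limit the activation of RAF. Spred1, on chromosome 2 (117121374 to 117182279, plus strand, mm10), had 17.5, 17.9 and 17.4 FPKM in proximal libraries 1, 2 and 3, against 17.6, 21.3 and 22.4 FPKM in distal libraries 1, 2 and 3. Distal libraries 2 and 3 were highest, and distal library 1 lay within the narrow range of the proximal libraries. The log2 fold change was -0.20 ± 0.12 (SE, 95% interval -0.47 to 0.07, limma, adjusted p = 0.345). Spred2, on chromosome 11 (19924375 to 20024026, plus strand, mm10), had 17.5, 19.0 and 14.9 FPKM in proximal libraries 1, 2 and 3, against 23.6, 21.03 and 22.7 FPKM in distal libraries 1, 2 and 3. All 3 proximal libraries lay below all 3 distal libraries. The means were 17.1 ± 2.06 FPKM in the proximal and 22.4 ± 1.28 FPKM in the distal group (SD, n = 3 each), a log2 fold change of -0.37 ± 0.12 (SE, 95% interval -0.65 to -0.10, limma, adjusted p = 0.1003). The interval excludes 0, but with all genes tested the difference did not pass.

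The lower proximal values of Spred2 were found in both of its main deposited transcripts, whose spans overlap, so they are not separate measurements. A spliced transcript of 2872 bases had 8.13, 7.58 and 6.89 FPKM in proximal libraries 1, 2 and 3, against 10.4, 10.4 and 11.6 FPKM in distal libraries 1, 2 and 3 (limma over transcripts, adjusted p = 0.0883). A transcript of 3245 bases at the end of the gene had 9.34, 8.40 and 8.03 FPKM in proximal libraries 1, 2 and 3, against 13.2, 10.7 and 11.1 FPKM in distal libraries 1, 2 and 3 (limma over transcripts, adjusted p = 0.163). The groups did not overlap in either. Of 24 member transcripts, 15 reached a mean of 1 FPKM and 0 of these passed, against 3.06% of all transcripts tested (2.16% higher and 0.894% lower), and 4 had an unadjusted p under 0.05, against 18.7% of all transcripts tested. Of these, 3 were lower, against 8.86% of all transcripts, namely both main ones of Spred2 and 1 of Etv4. The 942-base model of Spry1 was higher, at 2.48 on the log2 scale. Summed over both Spred genes, the level was 35.0, 36.9 and 32.4 FPKM in proximal libraries 1, 2 and 3, against 41.1, 42.3 and 45.1 FPKM in distal libraries 1, 2 and 3, without overlap and without a test. This sum includes both overlapping models of Spred2.

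**Figure D4:**
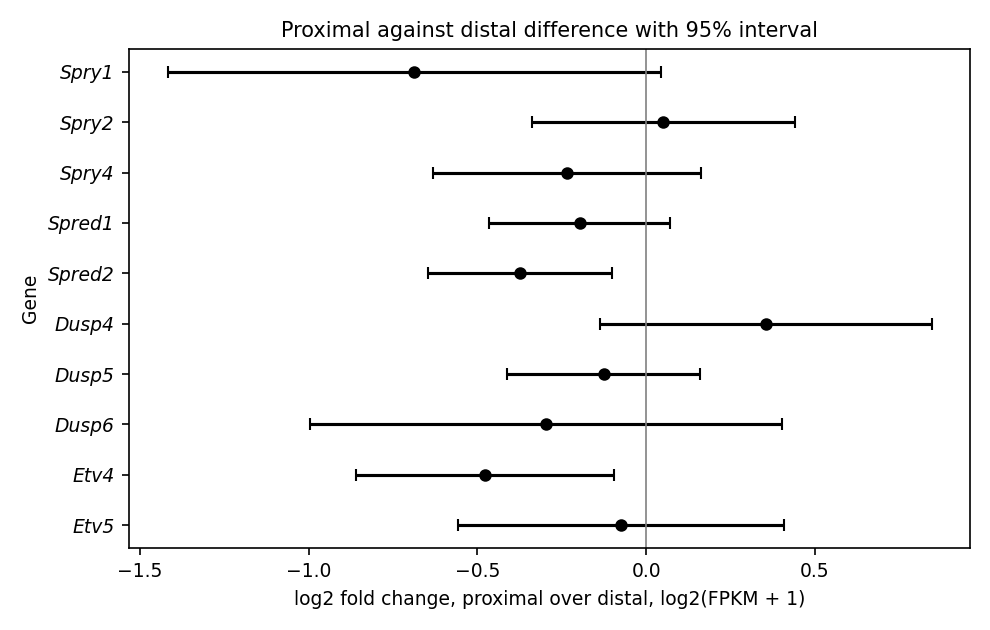
Log2 fold change of proximal over distal cells on the log2(FPKM + 1) scale for the 10 members, with points at the estimate and bars for the 95% interval of the limma fit. The intervals of Spred2 and Etv4 lie below 0 before adjustment for all genes tested, and the widest are those of Spry1 and Dusp6.

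The Dusp genes of this set encode dual specificity phosphatases that act on ERK, Dusp6 in the cytoplasm and Dusp4 and Dusp5 in the nucleus. Dusp6, on chromosome 10 (99263231 to 99267489, plus strand, mm10), was the most abundant member in all 6 libraries. It had 632, 351 and 318 FPKM in proximal libraries 1, 2 and 3, against 723, 454 and 399 FPKM in distal libraries 1, 2 and 3. The library numbered 1 of each region stood well above the other 2, and the groups overlapped. The deposited interval of proximal library 1, which covers the counting and assignment error of that library only, was 626 to 638 FPKM. The means were 434 ± 173 FPKM in the proximal and 525 ± 173 FPKM in the distal group (SD, n = 3 each), with a log2 fold change of -0.30 ± 0.30 (SE, 95% interval -0.995 to 0.40, limma, adjusted p = 0.594). It was -0.35 without both libraries numbered 1 (limma, adjusted p = 0.0623), -0.60 without proximal replicate 1 and -0.04 without distal replicate 1.

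Dusp5, on chromosome 19 (53529109 to 53542431, plus strand, mm10), had 78.6, 67.9 and 62.4 FPKM in proximal libraries 1, 2 and 3, against 85.1, 71.5 and 71.4 FPKM in distal libraries 1, 2 and 3. As with Dusp6, the libraries numbered 1 were the highest of their region, and the groups overlapped. Its means were 69.6 ± 8.23 FPKM in the proximal and 76.0 ± 7.90 FPKM in the distal group (SD, n = 3 each), with a log2 fold change of -0.13 ± 0.12 (SE, 95% interval -0.41 to 0.16, limma, adjusted p = 0.581). The deposited model of Dusp5 is 1155 bases long, against 2473 exon bases in the annotation, and an antisense gene, AC137853.2, overlaps 22.1% of those, so reads of the 2 cannot be told apart.

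Dusp4, on chromosome 8 (34807297 to 34819894, plus strand, mm10), had 3.16, 2.13 and 1.45 FPKM in proximal libraries 1, 2 and 3, against 1.17, 1.79 and 1.52 FPKM in distal libraries 1, 2 and 3. Proximal libraries 1 and 2 were the highest and distal library 1 the lowest, and the groups overlapped. Its mean was 2.25 ± 0.861 FPKM in the proximal and 1.49 ± 0.310 FPKM in the distal group (SD, n = 3 each), a log2 fold change of 0.35 ± 0.21 (SE, 95% interval -0.14 to 0.85, limma, adjusted p = 0.353). It was 0.06 without both libraries numbered 1 and 0.16 without proximal replicate 1. The deposited interval of proximal library 1 was 2.68 to 3.63 FPKM and that of distal library 1 was 0.863 to 1.48 FPKM. Of the summed level of the 3 Dusp members, Dusp6 held 83.3% to 88.6% in proximal and 84.5% to 89.3% in distal libraries. Dusp4 held 0.379% to 0.506% in proximal and 0.145% to 0.339% in distal libraries, a share without overlap that was not tested.

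Etv4 and Etv5 are ETS transcription factors of the PEA3 group that are switched on by FGF signalling in many epithelia, and both were scarce here. Etv4, on chromosome 11 (101769742 to 101785371, minus strand, mm10), had 3.36, 3.23 and 3.82 FPKM in proximal libraries 1, 2 and 3, against 6.44, 5.38 and 4.04 FPKM in distal libraries 1, 2 and 3. The groups did not overlap, although distal library 3 lay close to proximal library 3. The means were 3.47 ± 0.314 FPKM in the proximal and 5.29 ± 1.20 FPKM in the distal group (SD, n = 3 each), a log2 fold change of -0.48 ± 0.17 (SE, 95% interval -0.86 to -0.09, limma, adjusted p = 0.127). Its larger transcript, of 2321 bases, had 2.20, 1.79 and 1.26 FPKM in proximal libraries 1, 2 and 3, against 2.94, 3.31 and 2.93 FPKM in distal libraries 1, 2 and 3 (limma over transcripts, adjusted p = 0.171). A second transcript, of 2049 bases, had 1.15 to 1.51 FPKM in proximal and 1.11 to 2.53 FPKM in distal libraries.

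Etv5, on chromosome 16 (22381309 to 22439719, minus strand, mm10), had 3.02, 1.89 and 1.32 FPKM in proximal libraries 1, 2 and 3, against 1.95, 2.46 and 2.08 FPKM in distal libraries 1, 2 and 3. The proximal libraries held both the highest and the lowest value. The log2 fold change was -0.07 ± 0.21 (SE, 95% interval -0.56 to 0.41, limma, adjusted p = 0.873), and it was 0.11 without proximal replicate 3 and -0.33 without both libraries numbered 1. At these levels, the pseudocount of 1 makes the fold changes of Dusp4 and Etv4 smaller than the ratios of their means.

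The ligands and receptors that feed the cascade were examined as lists. Of 21 FGF ligand genes with a value, 2 were tested. Fgf1, a ligand for all FGF receptors, lay at 69.1 to 77.8 FPKM in proximal and 73.3 to 81.6 FPKM in distal libraries and did not pass. Fgf13, which belongs to the intracellular FGF homologous factors that are not secreted, was higher in proximal cells, with 3.46, 3.04 and 3.17 FPKM in proximal libraries 1, 2 and 3, against 0.263, 0.280 and 0.672 FPKM in distal libraries 1, 2 and 3 (log2 fold change 1.60 ± 0.16, SE, limma, adjusted p = 0.00147). Of 5 tested FGF receptor and cofactor genes, 1 passed, Fgfrl1, a receptor without a kinase domain. It had 6.44, 6.12 and 6.57 FPKM in proximal libraries 1, 2 and 3, against 4.26, 3.58 and 3.69 FPKM in distal libraries 1, 2 and 3 (log2 fold change 0.61 ± 0.12, SE, limma, adjusted p = 0.0238). It no longer passed without any 1 of distal replicates 2 and 3 and proximal replicates 2 and 3 (limma, adjusted p of 0.0876 to 0.109). Fgfr2, the most abundant of the receptors, lay at 66.0 to 79.3 FPKM in proximal and 59.8 to 92.3 FPKM in distal libraries and did not pass. An unadjusted p under 0.05 in limma was found in 2 of the 5 genes, Fgfrl1 and Fgfr3, against 24% of all genes. Fgfr3 lay at 5.35 to 6.49 FPKM in proximal and 1.93 to 4.34 FPKM in distal libraries. Its groups did not overlap, but it did not pass (limma, adjusted p = 0.0801).

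Among EGF family ligands, 7 of 9 tested genes passed, 5 lower and 2 higher in proximal cells. Areg, Epgn, Nrg2, Ereg and Tgfa fell by 2.03, 1.77, 1.01, 0.81 and 0.68 on the log2 scale, and Nrg1 and Btc rose by 1.01 and 0.70 (limma, adjusted p of 0.00149 to 0.0482). The calls of Areg and Nrg1 held in every alternative tried, and those of the other 5 were lost in 2 to 9 alternatives, among them those that left out replicate 2 of either region, and the largest adjusted p in limma was 0.177. Hbegf, the most abundant ligand, had a log2 fold change of -0.38 (limma, adjusted p = 0.499). Of the receptors, 0 of 3 tested passed in limma, and 0 of these had an unadjusted p under 0.05. Of 23 tested genes of the cascade from Grb2 through the RAS, RAF and MEK genes to ERK and its kinases, 0 passed in limma and 1 had an unadjusted p under 0.05. Their fold changes lay close to 0, with a median of 0.03.

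Other genes known to be induced or used in feedback by ERK were a further list, and 1 of 14 tested passed. An unadjusted p under 0.05 in limma was found in 5 of 14, against 24% of all genes. The groups did not overlap in the same 5, against 28.9% of all genes. Of these, Emp1 and Epha4 were higher, and Ier3, Myc and Phlda1 were lower in proximal cells. Emp1, a tetraspan membrane protein gene, had 171, 135 and 154 FPKM in proximal libraries 1, 2 and 3, against 79.2, 57.7 and 72.6 FPKM in distal libraries 1, 2 and 3 (log2 fold change 1.13 ± 0.15, SE, limma, adjusted p = 0.00471). It kept its call in every alternative tried. Ier3, an early response gene and the most abundant of the list, had 2004, 1915 and 2413 FPKM in proximal libraries 1, 2 and 3, against 3125, 2759 and 3052 FPKM in distal libraries 1, 2 and 3. It did not pass, at -0.50 ± 0.15 (SE, limma, adjusted p = 0.0953), although its groups did not overlap. Errfi1, an inhibitor of the EGF receptor, lay at 807 to 857 FPKM in proximal and 798 to 858 FPKM in distal libraries. Plaur, the urokinase receptor gene, and Fosl1, an AP-1 factor gene, had log2 fold changes of 0.36 (limma, adjusted p = 0.208) and 0.21 (limma, adjusted p = 0.582).

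Among the other dual specificity phosphatases, 0 of 8 tested passed in limma, 0 had an unadjusted p under 0.05, and 6 had a negative log2 fold change, with a median of -0.11. Dusp7, which also acts on ERK, had 270.0, 232 and 219 FPKM in proximal libraries 1, 2 and 3, against 335, 255 and 250 FPKM in distal libraries 1, 2 and 3, a log2 fold change of -0.21 (limma, adjusted p = 0.426). As in Dusp6, the libraries numbered 1 were the highest of their region. Dusp1, an immediate early phosphatase, lay at 211 to 226 FPKM in proximal and 202 to 277 FPKM in distal libraries. Its log2 fold change was -0.18 (limma, adjusted p = 0.462), and it is counted in the immediate early list as well.

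**Figure D5:**
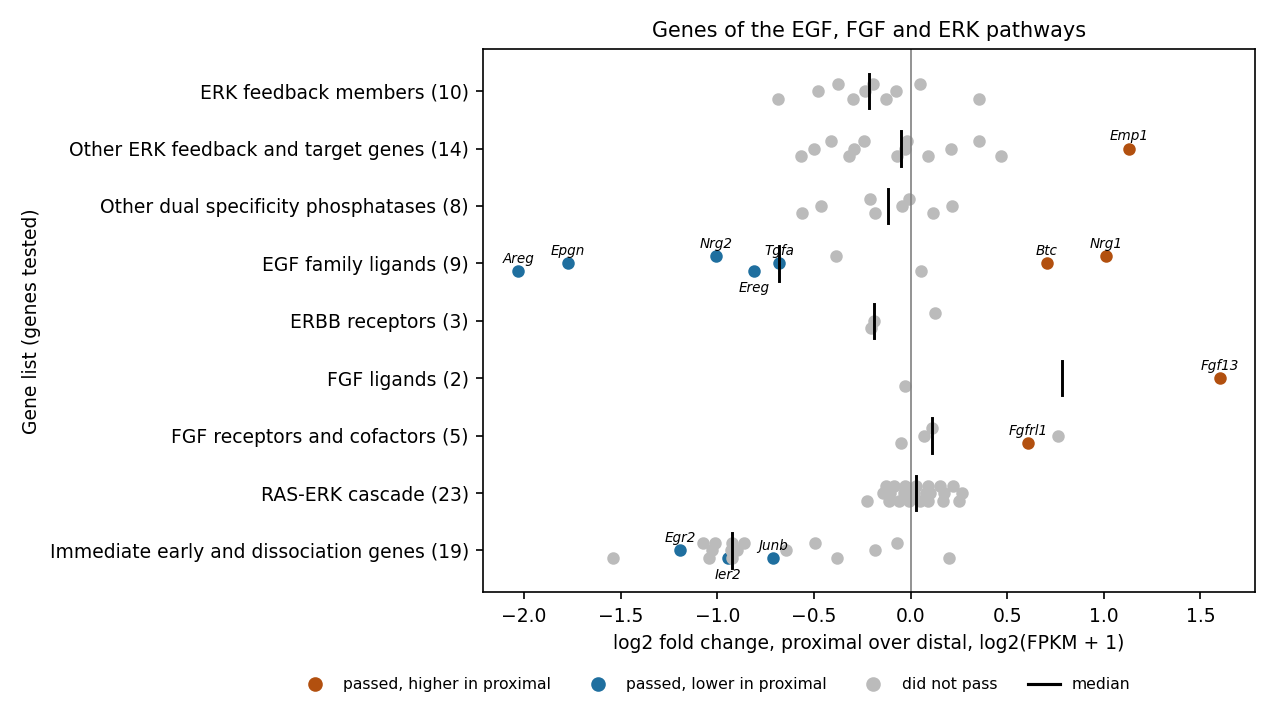
Log2 fold change of proximal over distal cells on the log2(FPKM + 1) scale for each tested gene of 9 lists, with genes that passed the test in orange (higher in proximal) or blue (lower in proximal), the others in grey, and a bar at the list median. The 10 members and the 23 cascade genes are all grey, and 7 of the 9 EGF family ligands are coloured.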

How the data were processed

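Total RNA of sorted cells was reverse transcribed with random and oligo(dT) primers and read by Illumina sequencing, per the labels' protocols. The submitters' processing notes name bcl2fastq 1.8.3, TopHat, Cufflinks and the build mm10. Each deposited file lists FPKM with an interval for 63241 transcripts of 1 library, and its coverage, a signal not scaled to depth, per the file headers. The annotation used and the strand of the reads are not given in the sources used here.

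Transcripts were matched to GENCODE M21 genes by span and length, and 53433, with 94.0% of the FPKM, gave 25307 genes as sums of FPKM. A close match needed a span overlap times length ratio of at least 0.5, with any rival below 0.8 of it (49609 transcripts), and 3714 were matched by exons of 1 gene that made up at least 0.8 of the length. A last step matched 110 whose length was within 1% of the exons of 1 gene in their span, and was added because Dusp5 was otherwise unmatched. On 2000 simulated transcripts, 90.5% were assigned and 99.7% of these to the right gene. The intervals and coverage served to derive depth, which differed by at most 1.28-fold between libraries, measured as coverage per FPKM. These FPKM values are not counts.

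Genes averaging 1 FPKM or more entered a limma fit (version 3.58.1, R 4.3.3) of log2(FPKM + 1), with a variance trend, two-sided, with no covariates, and transcripts likewise in a fit of their own. The fit was tested on simulated data over 10139 genes, with independent noise and 200 changed genes drawn from those averaging at least 5 FPKM. Of the genes called there, 8.1% were false. The members and lists were chosen with earlier results of these data known. The text names all members, and of each list those that passed and up to 4 of the highest mean level. Fgfr3, Epha4, Myc and Phlda1 were named besides for an unadjusted p under 0.05. Alternatives changed the filter, pseudocount, scaling, variance trend, matching, replicate block and the libraries used. Those without the last matching step and with transcripts weighted by length were chosen after seeing the data. Promoters came from RefSeq.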

Additional observations from a re-analysis of the deposited data

How the results depend on the processing

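Of 175 results of single members under an alternative, 166 kept their direction and their side of the threshold, and no member passed with all libraries, so none had a call to lose. The log2 fold change of Spry2 turned to -0.068 with closely matched transcripts and to -0.010 with transcripts weighted by length, and ranged from -0.079 to 0.19 on leaving out 1 library, and that of Etv5 from -0.28 to 0.11 (both lowest without proximal replicate 1, and Etv5 highest without proximal replicate 3). The cause was not tested. No member passed the test as higher in any alternative, and the counts below are likewise of those that passed. Leaving out 1 library gave 0 to 1 members lower (Spry1 without distal replicate 1), 0 to 1 member transcripts higher, 204 to 537 genes higher and 45 to 618 lower, and 3 to 4 pathway genes higher and 1 to 7 lower, beside 5 and 5 with all libraries. Without both libraries numbered 1, 1 member (Spry1) was lower, 916 genes higher and 1394 lower, and 10 pathway genes lower. A filter at 5 FPKM left 275 genes higher and 167 lower and 3 pathway genes higher, and took Dusp4, Etv4 and Etv5 out of the test, and no filter gave 137 genes lower. Of 358 results of the other 20 genes named with a fold change, 309 kept direction and side, 7 gained and 42 lost a call and 0 turned. Of their 13 calls, 5 held throughout (Emp1, Fgf13, Areg, Nrg1 and Ier2).

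Groups share replicate numbers, but the numbers do not pair the samples by the labels. Over 10271 genes, the deviations of same-numbered libraries from their group means correlated at 0.38, 0.04 and 0.29, and proximal library 2 correlated best with distal library 3, at 0.16, so not every library correlated best with its own number, which is a hint from the data and not the design. With the replicate number as a block, 888 genes were higher and 739 lower, 2 members were lower, Spry1 (limma, adjusted p = 0.0428) and Dusp6 (limma, adjusted p = 0.0453), and 8 pathway genes were lower. Depth limits the precision of values of a few FPKM, such as Dusp4, whose deposited interval in proximal library 1 was 2.68 to 3.63 FPKM.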

Other observations

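The mean z-score of the members was 0.38, -0.44 and -0.95 in proximal libraries 1, 2 and 3, and 0.53, 0.33 and 0.16 in distal libraries 1, 2 and 3. This mean profile joins unlike patterns. Dusp6, Dusp5, Spry2 and Spry4 were highest in the library numbered 1 of each region, whereas Spry1 was lowest there. Among 6466 protein-coding genes outside all lists that averaged 5 FPKM or more, the 5 most like the mean profile by Pearson r over the 6 libraries were Kbtbd2 (0.998), Efnb2 (0.997), Cebpa (0.997), Chchd3 (0.994) and Abhd12 (0.994). These r values describe 6 libraries that share their groups and are the highest of many, so no p is given. Efnb2, the gene of the membrane ligand ephrin-B2, had 42.8, 31.0 and 25.0 FPKM in proximal libraries 1, 2 and 3, against 47.3, 41.8 and 40.2 FPKM in distal libraries 1, 2 and 3. Cebpa, a transcription factor gene of epithelial and other differentiation, had 13.5, 9.44 and 7.68 FPKM in proximal libraries 1, 2 and 3, against 14.9, 13.8 and 12.8 FPKM in distal libraries 1, 2 and 3. Each gene was highest in the library numbered 1 of each region, and the groups overlapped in both. Since these genes were chosen for their profile over the same libraries, no test of them is given.

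Several members of the wider gene families were below the level for testing. Spred3 lay at 0.398 to 0.526 FPKM in proximal and 0.912 to 1.20 FPKM in distal libraries, Etv1 at 0.253 to 0.445 FPKM in proximal and 0.120 to 0.221 FPKM in distal libraries, and Dusp9 at 0.631 to 1.16 FPKM in proximal and 0.434 to 0.729 FPKM in distal libraries. The FGF ligand Fgf9 lay at 0.364 to 0.460 FPKM in proximal and 1.06 to 1.39 FPKM in distal libraries, and Fgf2 at 0.711 to 1.297 FPKM in proximal and 0.398 to 0.524 FPKM in distal libraries. Fgf10, the mesenchymal ligand of prostate budding, did not exceed 0.149 FPKM in any library, and Fgf7, another mesenchymal ligand, did not exceed 0.808 FPKM. These genes were named after their values were seen, and they were not tested.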
